A study of Mus musculus with 20 samples.

Results

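Immediate early genes were examined in islet RNA of mice lacking the mitofusins, the outer membrane proteins that fuse mitochondria. The 10 members, *Fos*, *Fosb*, *Jun*, *Junb*, *Egr1*, *Egr2*, *Nr4a1*, *Nr4a2*, *Nr4a3* and *Ier2*, were chosen by name, and all 10 were found among the 28632 genes of the count table. RNA was sequenced from islets of 12-week-old mice in 20 libraries, 6 Ctrl, 4 β-Mfn1KO, 5 β-Mfn2KO and 5 β-Mfn1/2DKO. The knockout mice carried loxP-flanked alleles of *Mfn1* (β-Mfn1KO), *Mfn2* (β-Mfn2KO) or both (β-Mfn1/2DKO), deleted by *Ins1*-Cre, whose promoter restricts recombination to β-cells. Ctrl mice are labelled wild type, and by the study's text they pool animals with Cre alone and animals with floxed alleles alone. Islets were released with collagenase and cultured for a day before RNA was taken, so that every library, Ctrl included, comes from cells that had been through dissociation and culture. By sex, Ctrl held 3 female and 3 male libraries, β-Mfn1KO 3 and 1, and both β-Mfn2KO and β-Mfn1/2DKO 2 and 3. The question was whether these genes differ between genotypes, apart from what they share within single libraries.

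Immediate early genes are switched on within minutes of a stimulus, from factors already present in the cell and without new protein synthesis. Growth factors and stress reach them through mitogen-activated kinases and serum response factor, and calcium and cAMP through CREB, which binds the cAMP response element (CRE). Their transcripts are short-lived, and most encode transcription factors that start a second wave of genes. In β-cells, glucose and incretins induce *Fos*, *Egr1* and the *Nr4a* genes, while tissue dissociation and handling induce the same genes in many cell types.

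Depth went with genotype. Total counts were 12400687 to 20329064 in Ctrl, 15745680 to 16685381 in β-Mfn1KO, 15110046 to 59533407 in β-Mfn2KO and 65533388 to 122947313 in β-Mfn1/2DKO, so that depth and the double knockout cannot be told apart in comparisons with Ctrl. The targeted genes were low where the labels place a deletion, with *Mfn1* at 674 ± 68.1 normalized counts in β-Mfn1KO (SD, n = 4) against 1670.2 ± 114 in Ctrl (SD, n = 6) and *Mfn2* at 1577 ± 80.5 in β-Mfn2KO (SD, n = 5) against 3505 ± 519 in Ctrl (SD, n = 6). Normalized counts are read counts adjusted with TMM factors (edgeR) and brought to the mean library size. The 8 β-cell markers took up 63675 to 86621 CPM (counts scaled to library size) in β-Mfn1/2DKO and 144155 to 231776 CPM in Ctrl, and no gene of the list was at 0. The 14 acinar markers reached 15057 and 38386 CPM in β-Mfn1/2DKO replicates 4 and 5 and 6333 CPM in β-Mfn2KO replicate 4, against 84.5 to 1691 CPM in the other 17 libraries. The 8 macrophage markers reached 625 CPM in Ctrl replicate 6 and 859 CPM in β-Mfn2KO replicate 5, against 73.4 to 177 CPM in the other 18. The study's text counts the libraries of a genotype as mice, which the labels do not state, and p-values measure the spread between these libraries.

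The promoters are shown as background, and whether their sequences bear on the levels of these genes was not tested. RefSeq promoter sequences (GRCm38.p6) were at hand for 8 members, all but *Egr1* and *Ier2*, and were read over the 250 bases before the transcription start. The half-site of the CRE, TGACG on either strand, was found before at least 1 start in 7 of the 8, all but *Jun*, and in 17.8% of 32851 mouse promoters of that length. The members are counted by gene over all their starts and the 17.8% by single promoter, so the 2 shares are not like for like. *Nr4a1*, *Nr4a2* and *Nr4a3* each held 4 such half-sites, a number that 45 promoters (0.137%) reached. In the window of *Nr4a3*, 152 of the 250 bases lay in exons of the gene. No member held the full palindrome TGACGTCA, which was in 1.55% of promoters. *Fos* held half-sites 129 and 66 bases before the start and a TATAA sequence 33 bases before it, and *Junb* a half-site 106 bases before the start. Among the 8 members read *Egr2* alone, at starts inside the annotated gene, held the CArG box within the 250 bases. This element, bound by serum response factor, was in 1.47% of all promoters. Sequence farther upstream, and that of *Egr1* and *Ier2*, was not read. A match is a run of letters in this window and was not tested as a binding site. In the 4 windows that follow, each read 5′ to 3′ on the strand of the gene and free of exons of the gene, capitals mark the half-sites. They lie at chr12:85473640-85473889 (*Fos*, plus strand), chr8:84978749-84978998 (*Junb*, minus), chr15:101266596-101266845 (*Nr4a1*, plus, before a RefSeq start inside the annotated gene) and chr2:57124004-57124253 (*Nr4a2*, minus).
Fos: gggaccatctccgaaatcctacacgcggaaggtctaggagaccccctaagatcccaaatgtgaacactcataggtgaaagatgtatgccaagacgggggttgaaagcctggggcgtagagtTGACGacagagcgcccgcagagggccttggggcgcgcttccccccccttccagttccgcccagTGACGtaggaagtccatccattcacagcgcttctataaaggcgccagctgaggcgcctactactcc
Junb: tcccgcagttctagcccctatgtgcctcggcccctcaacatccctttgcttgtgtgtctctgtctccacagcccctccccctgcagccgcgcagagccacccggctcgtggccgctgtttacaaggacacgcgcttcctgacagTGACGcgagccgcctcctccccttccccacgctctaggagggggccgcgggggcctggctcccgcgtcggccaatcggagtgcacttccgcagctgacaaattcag
Nr4a1: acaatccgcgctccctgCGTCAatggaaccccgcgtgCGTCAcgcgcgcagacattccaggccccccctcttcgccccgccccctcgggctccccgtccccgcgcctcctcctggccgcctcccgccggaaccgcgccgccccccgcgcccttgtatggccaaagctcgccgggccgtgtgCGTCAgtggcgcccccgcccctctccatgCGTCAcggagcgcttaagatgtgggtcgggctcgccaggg
Nr4a2: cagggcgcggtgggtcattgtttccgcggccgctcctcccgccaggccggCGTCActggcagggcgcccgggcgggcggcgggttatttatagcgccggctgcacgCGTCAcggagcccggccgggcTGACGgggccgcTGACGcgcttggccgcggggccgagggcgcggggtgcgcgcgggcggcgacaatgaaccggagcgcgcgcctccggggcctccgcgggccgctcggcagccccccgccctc

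All 10 members were detected in all 20 libraries, at levels that spanned more than 2 orders of magnitude per length of transcript. Levels are given here as normalized counts per kilobase of exon, averaged over the 20 libraries. *Junb* (1077) stood highest, followed by *Jun* (640), *Ier2* (420), *Egr1* (157), *Nr4a2* (122.9), *Nr4a1* (85.6), *Fos* (72.8), *Egr2* (7.28), *Fosb* (6.28) and *Nr4a3* (3.72). *Junb* lay above *Jun*, and *Jun* above *Ier2*, in 20 of 20 libraries, although the ranges over libraries overlapped. *Egr1* lay above *Nr4a2* in 10 of 20 libraries and *Egr2* above *Fosb* in 11 of 20, so neither pair could be ordered. *Fos* and *Egr2* were the only neighbours in this order whose ranges did not overlap. In the shallow libraries the 3 lowest genes rest on few reads, down to 3 counts for *Egr2* and *Nr4a3* and 7 for *Fosb*. The exons of *Junb* share 173 bases with *Prdx2* on the opposite strand (151 CPM on average, against 60.2 for *Junb*), and with no strand setting stated its level may include reads of *Prdx2*.

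**Figure D1:**
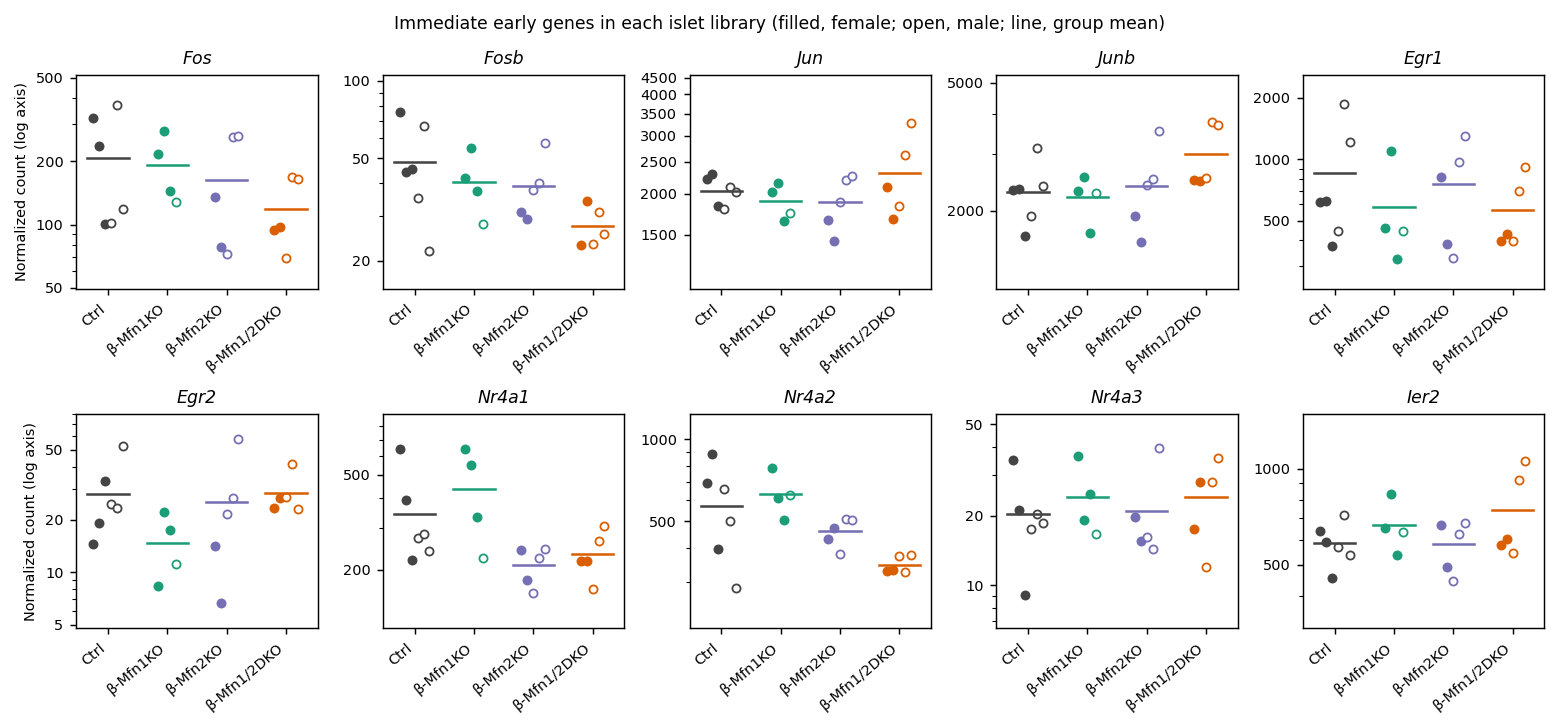
Normalized counts (log axis) of the 10 genes in each of the 20 libraries, by genotype; filled points are female, open points male, and lines are group means. The 5 β-Mfn1/2DKO libraries of *Nr4a2* sit between 325 and 376, below all β-Mfn2KO and β-Mfn1KO libraries, while for *Fos* and *Egr1* the libraries of one genotype spread over most of the range of all.

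In β-Mfn1/2DKO islets, *Nr4a2* and *Fosb* fell to 0.605-fold and 0.566-fold of Ctrl, no member rose, and the other 8 did not pass the test. Of the 10 genes 2 were called, both lower, where 5.21% of all 28632 genes were called in either direction and 1.97% as lower. To be called, a gene had to change by over 1.5-fold with a Benjamini-Hochberg adjusted p below 0.05 (quasi-likelihood test of edgeR). Of the members 5 had higher and 5 lower estimates, and their median log2 fold change was −0.26, against 0.06 over all genes. Lower estimates numbered 9 of 10 without β-Mfn1/2DKO replicates 4 and 5 (median −0.41) and 9 of 10 with depth class, shallow or deep, in the fit (median −0.89), and 5 or 6 of 10 under the other alternatives run. Only β-Mfn2KO held libraries of both depth classes, so here and below the depth term rests on its replicates 4 and 5 against its other libraries. These 2 libraries had 9 and 10 of 10 members above the mean of their genotype. Results with depth class therefore cannot separate depth from what else set these 2 apart. An unadjusted p under 0.05 was reached by 5 members and by 27.8% of all genes. No member separated all β-Mfn1/2DKO libraries from all Ctrl libraries, as 6.56% (higher) and 4.04% (lower) of all genes did. In whole islets, fewer cells of a type and less RNA per cell cannot be told apart.

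The 3 *Nr4a* genes encode orphan nuclear receptors (Nur77, Nurr1 and Nor-1) that bind DNA without a known physiological ligand and are induced in β-cells by cAMP and calcium. *Nr4a2* (ENSMUSG00000026826, GRCm38 chromosome 2, 57106830 to 57124003, minus strand) ranged in Ctrl from 283 to 886 normalized counts, with a median of 580.4. It stood at 328, 332, 372, 325 and 376 in β-Mfn1/2DKO, at 432, 474, 379.6, 510.3 and 505 in β-Mfn2KO, and at 784, 610.4, 504 and 626 in β-Mfn1KO. The β-Mfn1/2DKO libraries were close together, with a coefficient of variation of 7.26% against 38.5% in Ctrl, and 1 Ctrl library, replicate 6, lay below all of them. The log2 fold change against Ctrl was −0.72 (SE 0.19, adjusted p = 0.0088, edgeR). Without Ctrl replicate 2, the highest library, it was −0.55, under the fold threshold with an adjusted p of 0.032. *Nr4a2* stayed called when β-Mfn1/2DKO replicates 4 and 5 were left out, but not when depth class entered the fit (−0.97, adjusted p = 0.14) or when libraries were scaled by total counts alone (−0.58, under the fold threshold).

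*Nr4a1* (chromosome 15, 101254269 to 101274795, plus strand) ranged in Ctrl from 219 to 643 normalized counts, with a median of 276. It stood at 218, 216, 166, 263 and 305 in β-Mfn1/2DKO, at 243, 181, 159, 223 and 244 in β-Mfn2KO, and at 642, 549.9, 333 and 225 in β-Mfn1KO. Levels above 320, a cut chosen after the values were seen, occurred in 2 of 6 Ctrl and 3 of 4 β-Mfn1KO libraries and in none of the other 15. All 5 were female, but other female libraries lay below the cut, among them Ctrl replicate 3 (219) and β-Mfn1/2DKO replicate 1 (218). The estimate against Ctrl was −0.55 in β-Mfn1/2DKO (SE 0.26, adjusted p = 0.17) and −0.69 in β-Mfn2KO (SE 0.27, adjusted p = 0.93), and neither passed in edgeR. *Nr4a3* (chromosome 4, 48045153 to 48086447, plus strand) was low throughout, from 9.12 to 39.6 normalized counts over all 20 libraries, with an estimate of 0.24 in β-Mfn1/2DKO (SE 0.36, adjusted p = 0.71).

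The Fos and Jun proteins pair to form the transcription factor AP-1. *Fos* (chromosome 12, 85473890 to 85477273, plus strand) ranged in Ctrl from 100.3 to 370.1 normalized counts, with a median of 178. It stood at 94.4, 97.7, 69.1, 169 and 166 in β-Mfn1/2DKO, at 135, 78.2, 72.7, 262 and 263 in β-Mfn2KO, and at 218, 278, 144 and 128 in β-Mfn1KO. Within both Ctrl and β-Mfn2KO the libraries fell far apart, by 3.69-fold and 3.62-fold between the lowest and the highest. The estimate in β-Mfn1/2DKO was −0.82 (SE 0.38, adjusted p = 0.17). *Fos* was called lower with the acinar score in the fit (−1.14, adjusted p = 0.034), with depth class (−2.29, adjusted p = 0.040) and with the replicate number as a block (−0.91, adjusted p = 0.039). *Fosb* (chromosome 7, 19302696 to 19310051, minus strand) ranged in Ctrl from 21.8 to 75.6 with a median of 45.003, and stood at 23.1, 34.1, 23.3, 31.0 and 25.5 in β-Mfn1/2DKO. The β-Mfn1/2DKO values lay within the Ctrl range, at its lower end. Its log2 fold change of −0.82 (SE 0.28) had an adjusted p of 0.044, and it rested on 7 to 26 counts per Ctrl library. This call was lost on leaving out any 1 of 11 libraries, while the estimate stayed between −0.85 and −0.65. The adjusted p was then 0.14, 0.057, 0.059 and 0.11 without Ctrl replicate 1, 2, 3 or 5, 0.11, 0.10, 0.067 and 0.082 without β-Mfn1/2DKO replicate 1, 3, 4 or 5, 0.052 without β-Mfn1KO replicate 1, and 0.056 and 0.053 without β-Mfn2KO replicate 3 or 4. It was also lost without the acinar-rich replicates 4 and 5 of β-Mfn1/2DKO (−0.83, adjusted p = 0.12), with the acinar score in the fit (−0.84, adjusted p = 0.061), with depth class (−1.41, adjusted p = 0.14) and with all libraries drawn down to the smallest total (−0.70, adjusted p = 0.32).

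*Jun* (chromosome 4, 95049034 to 95052222, minus strand) ranged in Ctrl from 1793 to 2295 normalized counts, the narrowest spread of the 10 genes there (9.92%). In β-Mfn1/2DKO it stood at 2099.8, 1677, 1838, 2615 and 3283, and only replicates 4 and 5, the acinar-rich libraries, exceeded the Ctrl range. *Junb* (chromosome 8, 84974484 to 84978718, minus strand) ranged in Ctrl from 1665 to 3130.1, and stood at 2496, 2485, 2527, 3786 and 3682 in β-Mfn1/2DKO, again highest in replicates 4 and 5. The estimates were 0.17 (SE 0.14, adjusted p = 0.49) for *Jun* and 0.38 (SE 0.17, adjusted p = 0.15) for *Junb*. Without replicates 4 and 5 *Jun* stood at −0.11. *Ier2* (chromosome 8, 84661331 to 84662852, minus strand), an early gene induced by growth factors, was likewise highest in replicates 4 and 5, at 578, 601, 545, 920.2 and 1059 in β-Mfn1/2DKO against 456 to 717 in Ctrl. Its estimate was 0.34 (SE 0.17, adjusted p = 0.19), and −0.0015 without these replicates. 

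Egr1 and Egr2 are zinc finger factors, Egr1 being a target of serum response factor that glucose induces in β-cells. *Egr1* (chromosome 18, 34859823 to 34864984, plus strand) ranged in Ctrl from 374 to 1862 normalized counts with a median of 619. It stood at 398, 427, 395, 698 and 913 in β-Mfn1/2DKO, at 821, 382, 326, 967 and 1294 in β-Mfn2KO and at 458, 1099.8, 323 and 444 in β-Mfn1KO. All 4 genotypes overlapped, and the estimate in β-Mfn1/2DKO was −0.60 (SE 0.40, adjusted p = 0.38). *Egr2* (chromosome 10, 67535475 to 67542188, plus strand) ranged from 6.70 to 57.5 normalized counts over all libraries, and its estimate was 0.03 (SE 0.39, adjusted p = 0.98).

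**Figure D2:**
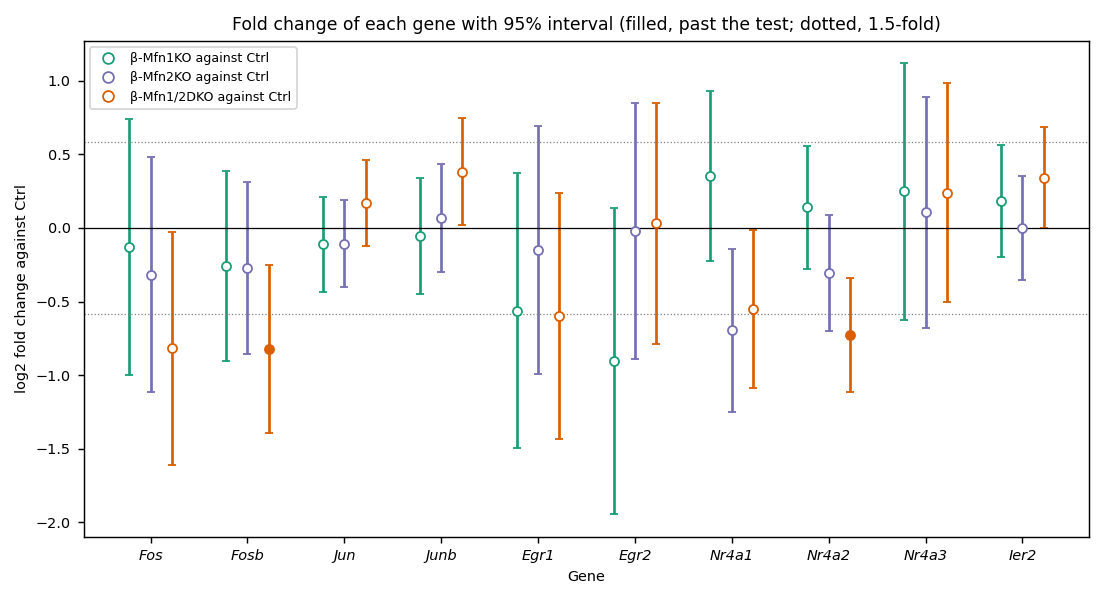
Log2 fold change against Ctrl of each gene in β-Mfn1KO, β-Mfn2KO and β-Mfn1/2DKO with 95% intervals from the fit; filled points passed the test and dotted lines mark 1.5-fold. Only *Fosb* and *Nr4a2* in β-Mfn1/2DKO are filled, and the intervals of *Jun*, *Junb* and *Ier2* are the narrowest.

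In single knockouts no member was called. In β-Mfn2KO 0 of 10 passed, with 0.0524% of all genes called, 1 member (*Nr4a1*) and 4.22% of all genes at an unadjusted p under 0.05, and estimates from −0.69 to 0.11 (*Nr4a3*). In β-Mfn1KO 0 of 10 passed, with 0.0244% of all genes called, 0 members and 7.44% of all genes at an unadjusted p under 0.05, and estimates from −0.90 (*Egr2*, SE 0.50, adjusted p = 0.70) to 0.35 (*Nr4a1*, SE 0.28, adjusted p = 0.75). DESeq2 also called 0 members in both. The intervals bound what these libraries could miss. For *Jun* in β-Mfn2KO the 95% interval ran from −0.40 to 0.19, whereas for *Fos* it ran from −1.12 to 0.48, so that a 2-fold lower level of *Fos* lies inside it.

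Against β-Mfn1KO, the members called lower in β-Mfn1/2DKO were *Nr4a* genes. Compared with β-Mfn1KO, *Nr4a2* (log2 fold change −0.87, SE 0.20, adjusted p = 0.0042) and *Nr4a1* (−0.91, SE 0.28, adjusted p = 0.027) were lower, 2 of 10 members where 6.71% of all genes were called and 2.67% as lower. An unadjusted p under 0.05 was reached by 3 members and 27.7% of all genes. For *Nr4a2* all 5 libraries lay below all 4 β-Mfn1KO libraries, as was so for 7.37% of all genes. For *Nr4a1* the call was lost without β-Mfn1KO replicate 1 (−0.66, adjusted p = 0.16) or replicate 2 (−0.78, adjusted p = 0.11), or without β-Mfn1/2DKO replicate 1 (−0.85, adjusted p = 0.059), 2 (−0.85, adjusted p = 0.058) or 3 (−0.78, adjusted p = 0.077). It was lost too with sex in the fit (−0.75, adjusted p = 0.083). With depth class in the fit neither was called (*Nr4a2* −1.11, adjusted p = 0.074, and *Nr4a1* −1.17, adjusted p = 0.21), and *Fos* was. *Egr2* was higher in all β-Mfn1/2DKO than in all β-Mfn1KO libraries (10.8% of all genes), with an estimate of 0.93 (SE 0.48, adjusted p = 0.22) that did not pass and that turned to −0.66 with depth class in the fit.

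Compared with β-Mfn2KO, 0 of 10 members were called in β-Mfn1/2DKO, where 3.84% of all genes were, and 1 had an unadjusted p under 0.05, as did 25.8% of all genes. That was *Nr4a2*, lower in all β-Mfn1/2DKO libraries (5.26% of all genes separated in that direction) with an estimate of −0.42 (SE 0.19, adjusted p = 0.17). Estimates ran from −0.55 (*Fosb*, SE 0.28) to 0.34 (*Ier2*, SE 0.17). Among the 7 deepest libraries alone, 2 β-Mfn2KO and 5 β-Mfn1/2DKO, 0 members were called. The share of all genes called in that small fit is not given here, so this 0 cannot be set against it. The effect of losing *Mfn1* in the absence of *Mfn2* minus its effect in the presence of *Mfn2* was called for 0 of 10 members (2.74% of all genes), and 0 had an unadjusted p under 0.05 (18.5% of all genes). The largest estimates of this difference were 0.96 for *Egr2* (SE 0.64) and −0.56 for *Nr4a2* (SE 0.28, adjusted p = 0.29). These comparisons share libraries, and so are not independent of each other.

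Sex was also compared, with genotype in the fit. Of the 10 members 0 were called between male and female libraries, where 0.0559% of all genes were. *Junb* was higher in males by 0.37 on the log2 scale (SE 0.11, adjusted p = 0.24) and *Egr1* by 0.65 (SE 0.29, adjusted p = 0.43), neither of which passed. *Nr4a1* was lower in males by 0.32 (SE 0.20, adjusted p = 0.59 in edgeR) and did not pass either.

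Most of the variation of these genes lay between libraries of one genotype, and it was shared among most members. Deviations from the genotype mean correlated with the mean of the other 9 members at 0.16 for *Egr2* and 0.28 for *Nr4a2*. For the remaining members this ran from 0.58 (*Fosb*) to 0.92 (*Fos*). The share of variation that lies between genotype means, given next, was not computed over all genes. Nor was it corrected for the share that arises without a genotype effect. Differences between genotype means made up 5.45% (*Nr4a3*), 7.94% (*Egr1*), 15.6% (*Fos*) and 15.8% (*Jun*) of the sum of squares of log2 CPM, and more only in *Nr4a2* (45.9%), *Nr4a1* (40.9%), *Fosb* (30.0%) and the remaining members (18.8 to 23.8%). After each library was set against the mean of its own genotype, β-Mfn2KO replicate 5 had 10 of 10 members above that mean and β-Mfn1/2DKO replicate 1 had 0 of 10. The count was 9 in β-Mfn2KO replicate 4 and β-Mfn1/2DKO replicate 4, 8 in β-Mfn1/2DKO replicate 5, Ctrl replicate 1 and β-Mfn1KO replicate 2, and 1 in Ctrl replicate 4, β-Mfn2KO replicate 2 and β-Mfn1/2DKO replicate 3. The median deviation of a library ran from −0.43 in Ctrl replicate 3 to 0.59 in β-Mfn2KO replicate 5 on the log2 scale.

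**Figure D3:**
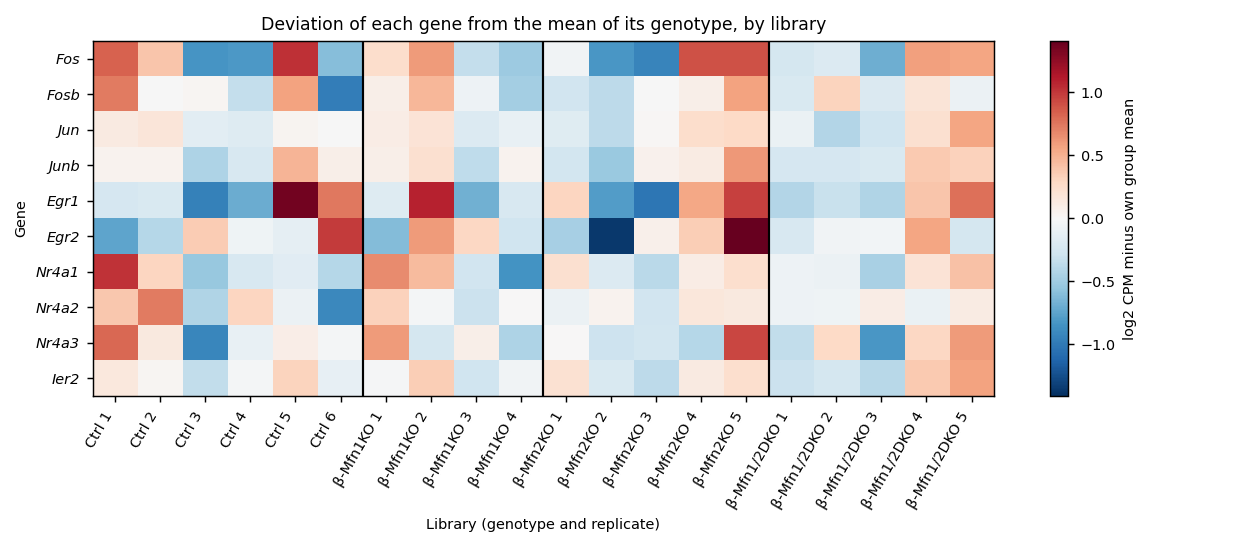
Log2 CPM of each gene minus the mean of its own genotype, for the 20 libraries (columns) in genotype order; red is above and blue below the mean. Columns tend to one colour: β-Mfn2KO replicate 5 is above the mean in 10 of 10 genes and β-Mfn1/2DKO replicate 1 in 0 of 10.

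Pairs of members were then compared over these deviations, 45 pairs over 20 libraries, with permutations of libraries within genotypes. Of the 45 Pearson correlations 42 were above 0, with a median of 0.46, and 16 had an adjusted p under 0.05, all 16 positive. By Spearman's rho 17 pairs passed, and 16 passed by both. *Jun* and *Junb* gave the highest value (r = 0.80, adjusted permutation p = 0.0014, rho = 0.84 with adjusted permutation p = 0.0011, r = 0.84 without the 2 libraries farthest from the median), next to *Egr1* and *Ier2* (r = 0.80, adjusted permutation p = 0.0014, rho = 0.82 with adjusted permutation p = 0.0011, r = 0.77 without 2). *Fos* was tied to 7 of its 9 partners, most closely to *Ier2* (r = 0.79, adjusted permutation p = 9.0e-04, rho = 0.81 with adjusted permutation p = 4.5e-04, r = 0.77 without 2). *Nr4a1* and *Nr4a3* deviated together (r = 0.72, adjusted permutation p = 0.0039, rho = 0.71 with adjusted permutation p = 0.0046, r = 0.65 without 2). *Nr4a2* and *Egr2* passed with 0 of 9 partners each, and had the lowest correlation of all with each other (r = −0.45, adjusted permutation p = 0.092, rho = −0.48 with adjusted permutation p = 0.12). *Nr4a2*, which had the lowest adjusted p of the members between β-Mfn1/2DKO and Ctrl, thus passed with none of the others. Its median r with them was 0.28. Its highest was with *Nr4a1* (r = 0.54, adjusted permutation p = 0.11, rho = 0.57 with adjusted permutation p = 0.061, r = 0.57 without 2).

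The median r of the 45 pairs, given without a test, was above 0 on each side of the splits by sex and by depth. It was 0.65 in 10 female and 0.55 in 9 male libraries, and 0.64 in the 7 deepest libraries and 0.43 in the other 13. Without the 3 acinar-rich libraries it was 0.49 and 10 pairs passed. Without these and the 2 macrophage-rich ones it was 0.40 over 15 libraries and 3 pairs passed. Pairs of other genes were not compared, so neither these medians nor the 16 passing pairs have a baseline over all genes. Deviations were also set against marker scores of 7 lists and against depth, 80 relations in all, of which 0 passed by either coefficient. Median correlations with the members were 0.43 for endothelial markers, 0.38 for heat shock genes, 0.33 for acinar markers, 0.31 for log2 depth and −0.35 for β-cell markers. The lowest p values were those of *Egr1* (r = 0.69, rho = 0.67, adjusted permutation p = 0.078) and *Junb* (r = 0.70, rho = 0.67, adjusted permutation p = 0.078) with the endothelial markers. The highest absolute r were those of *Jun* with the β-cell markers (−0.74, adjusted permutation p = 0.081) and the heat shock genes (0.74, adjusted permutation p = 0.10) and of *Egr2* with the macrophage markers (0.73, adjusted permutation p = 0.081).

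**Figure D4:**
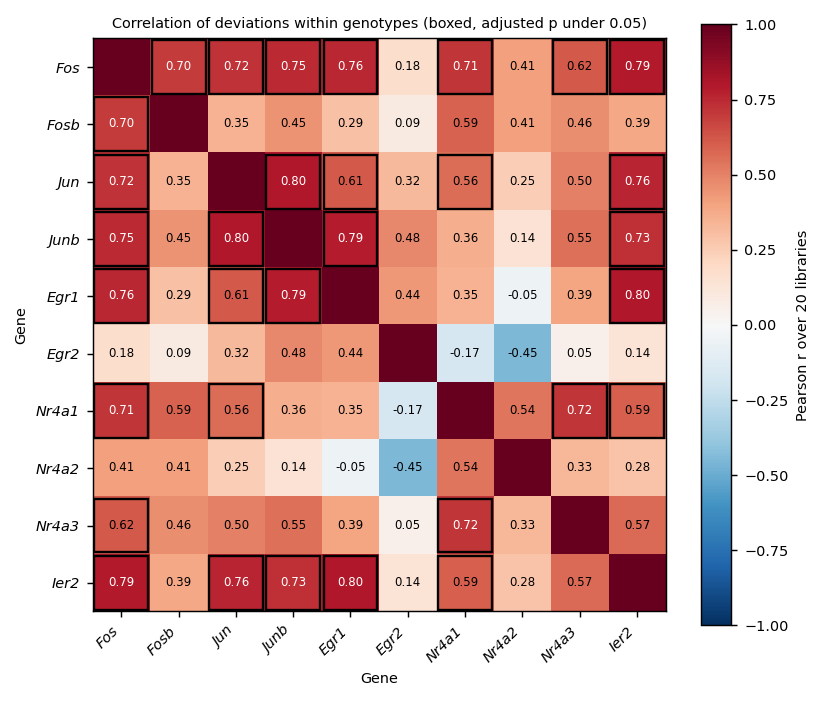
Pearson correlation of deviations from the genotype mean for each pair of genes over 20 libraries; boxes mark the 16 pairs with an adjusted permutation p under 0.05. *Fos*, *Jun*, *Junb*, *Egr1* and *Ier2* form a block of high values, *Nr4a1* is boxed with *Fos*, *Jun*, *Nr4a3* and *Ier2*, and the rows of *Egr2* and *Nr4a2* hold no box.

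Other genes were ranked by how closely they followed the mean standardised deviation of the 10 members over the 20 libraries, among 13485 other genes whose normalized counts averaged 50 or more. The closest was *Ier3* (r = 0.96), an early gene of growth factor and NF-κB signalling, followed by *Arid5a* (0.92), which stabilises short-lived cytokine mRNAs, *Ptpn2* (0.91), a phosphatase that dampens JAK-STAT signalling, and *Rgs4* (0.87), a regulator of G protein signalling. *Birc3* (0.86) and *Relb* (0.84), both known NF-κB targets, came next, then *Rhou* (0.83), *Sccpdh* (0.83) and the snoRNA host genes *Snhg15* (0.83) and *Snhg1* (0.82). These values describe the genes that were ranked highest and carry no test. Of the wider early list of 40 genes 36 were ranked, 33 of them with r above 0, and the median was 0.54. In it *Fosl2* (0.82), *Maff* (0.79), *Zfp36* (0.78), *Nfil3* (0.74), *Mcl1* (0.73), *Gadd45b* (0.73) and *Nfkbiz* (0.72) lay close as well, while *Per1* (−0.57), *Ccn2* (−0.43) and *Trib1* (−0.17) were below 0. Of the feedback list 15 of the 17 genes ranked were above 0, with a median of 0.32, *Socs3* standing at 0.78. For scale, an r of 0.0043 (*Ins2*) stood at percentile 49.2 of all genes ranked and one of 0.56 (*Btg2*) at percentile 95.8. High values were not limited to early genes. Among cell type markers *Pecam1* (endothelial) stood at 0.67 and *Zg16* (acinar) at 0.56, while *Slc2a2* (β-cell) stood at −0.74 and *Krt7* (ductal) at −0.51.

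Among the wider early genes, calls in β-Mfn1/2DKO went in both directions. Of 40 other early genes 6 rose and 3 fell, where 3.24% of all genes were called higher and 1.97% lower, with a median log2 fold change of 0.24 against 0.06 over all genes. *Atf3*, a stress-induced factor of the CREB family, rose by 1.83 (SE 0.31, adjusted p = 1.8e-04), from 146 to 258 normalized counts in Ctrl to 340.1 to 1273 in β-Mfn1/2DKO. *Myc*, the growth regulator, rose by 1.64 (SE 0.22, adjusted p = 1.2e-05), from 310.0 to 492 in Ctrl to 819.6 to 1671. In both genes the groups did not overlap, as was so for 6.56% of all genes in the higher direction. *Ier5l* rose by 0.82 (SE 0.18, adjusted p = 0.0019). *Trib1*, a pseudokinase that directs protein degradation, fell by 0.82 (SE 0.09, adjusted p = 9.1e-07), from 2466 to 3357 in Ctrl to 1615 to 1854. Its groups did not overlap either, as was so for 4.04% of all genes in the lower direction. *Crem*, whose products include an inducible repressor at CREs, fell by 0.64 (SE 0.15, adjusted p = 0.0038), though by 0.51 without Ctrl replicate 1 and by 0.58 without Ctrl replicate 2, both under the fold threshold. With depth class in the fit *Atf3* (0.76, adjusted p = 0.53), *Myc* (0.98, adjusted p = 0.18), *Ier5l* (0.64, adjusted p = 0.37) and *Crem* (−0.77, adjusted p = 0.14) did not pass, and *Trib1* was the 1 gene of the list still called. The others called were *Klf4*, *Fosl1* and *Ier3* (higher) and *Npas4* (lower), of which *Klf4* was called in 29, *Npas4* in 27, *Fosl1* in 21 and *Ier3* in 18 of the 33 settings run, with estimates of *Ier3* from −0.13 to 0.79. Without β-Mfn1/2DKO replicates 4 and 5, 3 of the 40 were called higher and 3 lower, and with scaling by total counts 14 and 2. That scaling also moved the median log2 fold change of all genes with a mean of at least 50 from 0.03 to 0.17. Single libraries moved the count as well. Higher calls numbered 10, 9 and 12 without β-Mfn1/2DKO replicate 1, 2 or 3, 4 and 3 without replicate 4 or 5, and 4 without Ctrl replicate 4. Lower calls numbered 1 without Ctrl replicate 1, 2 without Ctrl replicate 2 or β-Mfn1/2DKO replicate 1 or 3, and 4 without β-Mfn1/2DKO replicate 5. Shares of all genes called are given for the reported fit only, so counts under the other settings cannot be set against them.

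Feedback genes, which switch the signal off again, gave 3 higher and 1 lower of 18 (3.24% and 1.97% of all genes), with a median of 0.26. *Dusp14*, a phosphatase of mitogen-activated kinases, rose by 0.84 (SE 0.10, adjusted p = 4.2e-06), from 313 to 393 normalized counts in Ctrl to 521 to 672, and *Rgs2*, which limits G protein signalling, by 0.81 (SE 0.11, adjusted p = 1.7e-05), though not past the test with depth class in the fit (0.71, adjusted p = 0.067). *Dusp10*, a phosphatase of JNK and p38, fell by 0.62 (SE 0.09, adjusted p = 2.2e-05), and by 0.55 without Ctrl replicate 1 and 0.58 without β-Mfn1/2DKO replicate 1, under the fold threshold. *Spry1* rose by 0.65 (SE 0.20, adjusted p = 0.031), a call lost without any 1 of 7 libraries, with adjusted p values of 0.054, 0.080, 0.068 and 0.076 without Ctrl replicate 1, 2, 3 or 4 and of 0.051, 0.066 and 0.081 without β-Mfn1/2DKO replicate 1, 4 or 5. With depth class it stood at 0.43 (adjusted p = 0.68). Of 40 kinases and factors upstream of the early genes 1 rose and 0 fell, where 5.21% of all genes were called, with a median of 0.05. By adjusted p alone 6 were higher and 1 lower, a looser rule for which no share of all genes is given here. The gene called was *Ppp3ca*, the catalytic subunit of calcineurin (0.64, SE 0.05, adjusted p = 9.1e-09). In both single knockouts 0 genes of these 3 lists were called.

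Heat shock genes were read as a second sign of stress in the libraries. Of 16, 2 were called higher in β-Mfn1/2DKO, *Hspb1* (2.61, SE 0.66, adjusted p = 0.0077) and *Cryab* (1.95, SE 0.51, adjusted p = 0.010), and 0 lower, against 3.24% and 1.97% of all genes. By adjusted p alone 8 were lower, a looser rule for which no share of all genes is given here. The median log2 fold change of the list was −0.21. Without β-Mfn1/2DKO replicate 5 neither *Hspb1* nor *Cryab* was called (1.44, adjusted p = 0.077, and 1.25, adjusted p = 0.069), and without replicates 4 and 5 they stood at 0.12 and 0.69. The summed level of the list was 3546 to 4120 CPM in β-Mfn1/2DKO and 4184 to 4752 CPM in Ctrl. Of the marker lists 7 of 8 β-cell genes were called lower in β-Mfn1/2DKO, and 6 of 8 endothelial, 13 of 14 acinar, 2 of 7 ductal and 1 of 8 stellate genes higher, with 0 of 8 macrophage and 0 of 9 α-, δ- and PP-cell genes called. Within β-Mfn1/2DKO the acinar sum was high in replicates 4 and 5 alone, and its median was 668 CPM in β-Mfn1/2DKO against 834 CPM in Ctrl. Of the endothelial genes 3 were called without these 2 libraries and 1 with depth class, settings for which no share of all genes is given here. Endothelial markers summed to 229.7 to 353 CPM against 157 to 236 CPM in Ctrl.

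**Figure D5:**
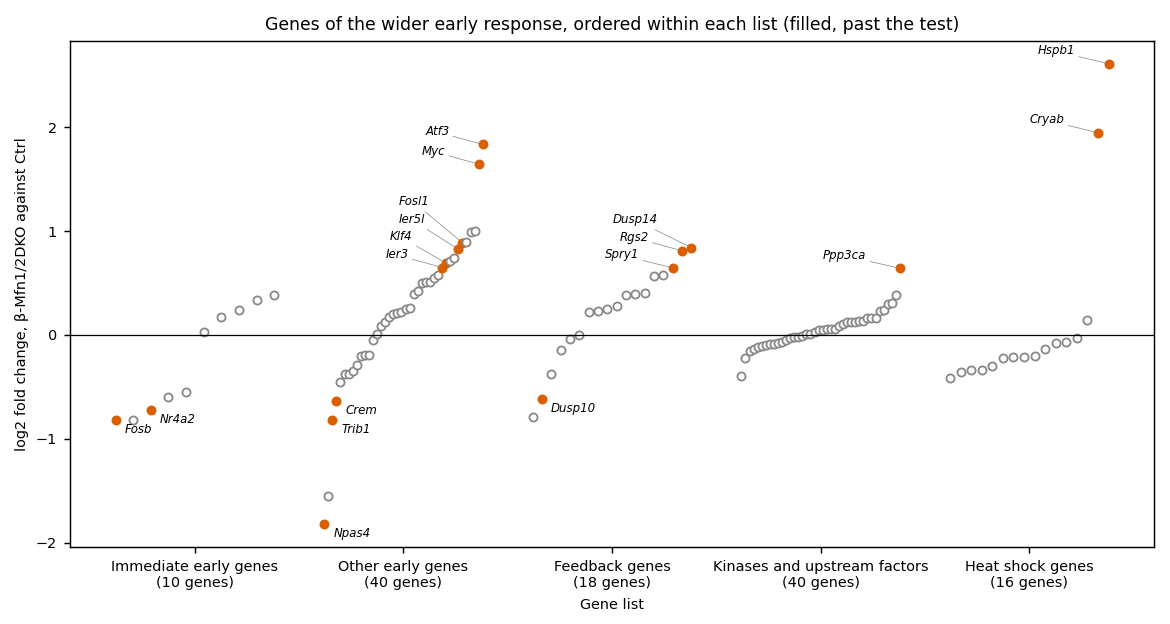
Difference between β-Mfn1/2DKO and Ctrl, as log2 fold change, for the 10 immediate early genes and the 4 wider lists, each list in ascending order; filled points passed the test and are named. Called genes lie on both sides of 0 among the other early genes and the feedback genes, and 2 of the 10 immediate early genes are filled, both below 0.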

How the data were processed

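Per the labels and the study's methods, total RNA was sequenced in paired-end reads, which the authors aligned to GRCm38 with STAR 2.6.1b after FastQC 0.11.8, with genes counted by RSEM 1.3.1. The deposited table holds whole-number counts without normalization, and genes at 0 in all samples were dropped. Strand setting is not given in the sources used here. A second, normalized table was not used. Symbols came from GENCODE M21 (28561 of 28632 genes, 71 unmatched).

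The counts were fitted in edgeR 4.0.16 (R 4.3.3) with TMM, glmQLFit and glmQLFTest in 1 fit over all 20 libraries, without covariates, and p-values were adjusted by Benjamini-Hochberg over all genes of a contrast. A call needs an adjusted p under 0.05 and a change over 1.5-fold. The SE is the absolute log2 fold change over the root of F. Log2 CPM used a prior count of 2. Correlations used 100000 permutations within genotypes (NumPy 2.4.6), adjusted within each family. The scripts were tested on simulated data.

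The members and all lists were chosen with earlier results of these data known. Named genes are the members, *Mfn1* and *Mfn2*, up to 5 called genes per list with the lowest adjusted p whose normalized counts averaged 50 or more, and the 10 genes most like the members; further genes named from the lists were picked after their values were seen. Alternatives were DESeq2 1.42.0 and its size factors, total-count scaling, filterByExpr, fits to the groups compared, covariates, thinned counts (seed 20) and left-out libraries. Depth, 12400687 counts at the least, limits the low genes most.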

Additional observations from a re-analysis of the deposited data

Results flagged for a closer look

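Of 40 sets of libraries (10 genes in 4 genotypes), 2 held a value far from its neighbours by Dixon's criterion at the 95% level, as many as the 2 that chance gives at 1 in 20. *Egr2* stood at 41.5 normalized counts in β-Mfn1/2DKO replicate 4, one of the acinar-rich libraries, with the next library at 26.8. *Nr4a3* stood at 39.6 in β-Mfn2KO replicate 5, the library with 10 of 10 members above the mean of its genotype, with the next at 19.7.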

How the results depend on the processing

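The counts of members called in β-Mfn2KO and β-Mfn1KO against Ctrl, in β-Mfn1/2DKO against β-Mfn2KO and for the difference between the effects of *Mfn1* loss were 0 under each alternative run. Shares of all genes called under the alternatives are not given, so counts of members there cannot be set against them. Against Ctrl, β-Mfn1/2DKO had 2 called members in the reported fit, 0 with total-count scaling, and 1 with only the groups compared, with sex, with thinned counts, with depth class or without the acinar-rich replicates 4 and 5, with a range of 0 to 2 on leaving out single libraries. With depth class the 1 called was *Fos* (−2.29), not *Nr4a2*. Against β-Mfn1KO the 2 became 1 (*Nr4a2*) with sex and 1 with depth class, which was *Fos* and neither of the 2, and 1 to 2 on leaving out single libraries. Total-count scaling moved the median log2 fold change of genes with a mean of at least 50 from 0.03 to 0.17. The 16 correlated pairs became 15 to 21 without single libraries, and, in settings chosen after seeing the data, 10 without the 3 acinar-rich libraries and 3 without these and the 2 macrophage-rich ones. The cause was not tested.

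Estimates that changed sign had not passed the test. In β-Mfn1/2DKO against Ctrl with depth class, *Jun* stood at −0.26, *Junb* at −0.23, *Egr2* at −1.56 and *Nr4a3* at −0.42. Without replicates 4 and 5, *Jun* stood at −0.11, *Egr2* at −0.090, *Nr4a3* at −0.072 and *Ier2* at −0.0015, and against β-Mfn2KO *Ier2* at −0.0099. With sex *Egr2* stood at −0.0060, and without single libraries at −0.13 to 0.31. *Nr4a3* in β-Mfn2KO stood at −0.13 with thinned counts, at −0.25 with depth class and at −0.33 to 0.33 without single libraries. Against β-Mfn2KO *Fosb* stood at 0.043 with thinned counts, and against β-Mfn1KO *Egr2* at −0.66 with depth class.

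The labels do not say that replicate numbers pair libraries, and over the 27 pairs of libraries with 1 number the correlation of deviations averaged 0.19 (−0.13 to 0.46), with 19 pairs over 0.1. With the replicate block 3 members were called against Ctrl in β-Mfn1/2DKO, *Fos* being added (−0.91, adjusted p = 0.039 in edgeR). The low counts of *Fosb*, *Egr2* and *Nr4a3* in shallow libraries limit what can be seen of them.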
